A study of Mus musculus with 4 samples.

Results

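The nicotinic acetylcholine receptor of skeletal muscle and the machinery that gathers it at the nerve contact are described here through 10 genes. They were chosen by name, as every mRNA transcript whose gene symbol was Chrna1, Chrnb1, Chrnd, Chrng, Chrne, Agrn, Lrp4, Musk, Dok7 or Rapsn. The transcripts of each gene were summed, which gave 40 transcripts of 75959 and 10 genes of 21878 in the table. The samples were C3H10T1/2 cells, a mouse embryo line of mesenchymal progenitors, and all 4 came from this single line, with no nerve cells named in the cultures. The 2 untreated samples are labelled as untreated, with no culture time given for them. The 2 samples of the other group (replicates 101 and 102) received 5-AZA (5-azacytidine, an inhibitor of DNA methylation) at 20 μM for 72 h and then stayed in fresh growth medium for a further 21 days. The study used this treatment to turn the line into myocyte-like and cardiomyocyte-like cells.

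Levels are FPKM as deposited, the fragments of a transcript per kilobase of its length, scaled to the number of mapped fragments. A gene was tested when its mean over the 4 samples was at least 0.1 FPKM. It was called changed when limma's test on log2(FPKM + 0.1) gave an adjusted p below 0.05 with at least a 2-fold difference, so fold changes of low genes are understated. Among 13199 genes tested, 1724 were called higher after 5-AZA (13.1%) and 174 lower (1.32%), and at an unadjusted p below 0.05 the counts were 3220 and 1464. Centring each sample on its median gave 1602 higher and 252 lower, and quantile normalization gave 1041 and 886, with the median log2 fold change of all genes at -0.06 and -0.12 in place of 0.05. Of the line's mesenchymal markers, Vim was at 2268 and 2406 FPKM untreated and at 1178 and 1380 FPKM after 5-AZA, and Col1a1 at 118 and 92.4 FPKM and then at 64.1 and 83.0 FPKM. Ly6a was at 186 and 181 FPKM and then at 324 and 286 FPKM, Thy1 at 0.578 and 0.785 FPKM and then at 10.4 and 14.2 FPKM, and Nt5e was listed at 0 in both untreated samples. All 15 skeletal muscle marker genes examined were called higher, and their summed level was 6.13 and 4.82 FPKM in the untreated samples and 1192 and 1777 FPKM after 5-AZA. Of these, Ckm, Tnni2, Myh3, Myh8, Myh1, Myh4, Ttn and Mymk passed the limit of 0.1 FPKM only through their treated samples, so they had to differ. In bulk RNA, fewer cells of a type and less RNA per cell cannot be told apart, and this holds for every level given here. The study calls the replicates biological repeats and the labels do not say whether they were separate cultures, so the p-values may measure only technical spread between them.

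The muscle acetylcholine receptor is a ring of subunits that opens a cation channel when acetylcholine from the motor nerve binds. Fetal and denervated muscle builds it with the gamma subunit, and innervated adult muscle replaces gamma with epsilon, while alpha, beta and delta belong to both forms. At the synapse, the secreted proteoglycan agrin binds LRP4, which activates the receptor tyrosine kinase MuSK with its adaptor DOK7, and rapsyn then holds the receptors in clusters. Myogenic factors such as MyoD and myogenin bind E-boxes in the promoters of the receptor genes, and ETS factors bind the N-box of the epsilon gene.

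The promoter sequences of the 4 receptor genes with an entry and of Musk are shown, a choice made with their levels known. Dok7 was also called higher after 5-AZA and had entries, but its windows are not printed. Each printed sequence is the 250 bases before the annotated start, 5′ to 3′ on the gene's own strand, from RefSeq on GRCm38.p6. Capitals mark E-boxes (CANNTG) and, in Chrne, the N-box (CCGGAA).
Chrna1, chr2:73580339-73580588, minus strand: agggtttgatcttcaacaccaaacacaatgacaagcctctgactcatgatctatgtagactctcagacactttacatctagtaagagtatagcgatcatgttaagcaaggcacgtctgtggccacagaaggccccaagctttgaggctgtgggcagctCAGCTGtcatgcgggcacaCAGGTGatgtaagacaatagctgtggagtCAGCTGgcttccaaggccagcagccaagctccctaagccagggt
Chrnb1, chr11:69795938-69796187, minus strand: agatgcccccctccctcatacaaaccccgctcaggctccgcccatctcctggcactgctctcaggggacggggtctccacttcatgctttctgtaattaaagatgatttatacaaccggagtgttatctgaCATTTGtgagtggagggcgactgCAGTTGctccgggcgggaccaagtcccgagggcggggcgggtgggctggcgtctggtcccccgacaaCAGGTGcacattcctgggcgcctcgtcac
Chrng, chr1:87205561-87205810, plus strand: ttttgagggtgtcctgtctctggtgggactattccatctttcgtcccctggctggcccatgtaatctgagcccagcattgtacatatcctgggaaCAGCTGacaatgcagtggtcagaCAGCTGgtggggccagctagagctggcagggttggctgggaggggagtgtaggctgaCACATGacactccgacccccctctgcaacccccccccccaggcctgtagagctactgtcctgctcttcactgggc
Chrne, chr11:70619195-70619444, minus strand: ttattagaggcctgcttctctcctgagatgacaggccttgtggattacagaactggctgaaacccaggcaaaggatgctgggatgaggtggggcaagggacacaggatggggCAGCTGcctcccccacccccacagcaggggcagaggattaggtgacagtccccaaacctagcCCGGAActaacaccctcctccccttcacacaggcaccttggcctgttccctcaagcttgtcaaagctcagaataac
Musk, chr4:58285712-58285961, plus strand: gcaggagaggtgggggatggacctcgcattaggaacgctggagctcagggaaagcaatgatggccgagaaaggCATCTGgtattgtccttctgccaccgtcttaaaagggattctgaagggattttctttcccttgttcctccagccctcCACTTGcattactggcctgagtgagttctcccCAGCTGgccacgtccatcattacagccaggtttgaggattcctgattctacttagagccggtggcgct
Both strands were searched for CANNTG and for CCGGAA, and the form CAGCTG, which MyoD and myogenin are known to bind, is itself counted among the CANNTG matches. Over 32851 mouse promoters of the same length, 66.2% held at least 1 CANNTG, 12.2% held 3 or more, 13% held CAGCTG, 1.26% held CAGCTG at least 2 times and 12% held CCGGAA. Chrna1, Chrnb1, Chrng and Musk each held 3 E-boxes, of which 2 in Chrna1, 2 in Chrng and 1 in Musk had the form CAGCTG, whereas Chrnb1 had none of that form. The Chrne window held 1 E-box, of the form CAGCTG, and the only N-box in the windows of the 7 genes with an entry. Of the 2 windows listed for Agrn, 1 held 1 E-box and the other none, and the same was true of Dok7. These matches describe letters in a window and carry no measurement of binding. In all, 7 of the 10 genes had an entry, and Chrnd, Rapsn and Lrp4 had none.

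All 5 receptor subunit genes were called higher after 5-AZA, beside 13.1% of all genes tested. Each of the 5 passed the limit on low values only through its treated samples and so had to differ. The summed level of the 5 was 0.147 and 0.167 FPKM in the untreated samples and 18.7 and 28.7 FPKM after 5-AZA. Chrna1, the alpha subunit that forms the core of the acetylcholine binding sites, was at 0.0350 and 0.143 FPKM in the untreated samples and at 8.11 and 11.6 FPKM after treatment. Its untreated values both lay far below the treated ones, and the means were 0.0889 ± 0.0762 and 9.85 ± 2.46 FPKM (SD, n = 2 per group). The log2 fold change was 5.76 (SE 0.33, limma adjusted p = 6.02e-06). Without 5-AZA replicate 102 it was 5.50 with a limma adjusted p of 0.0533, which is no longer called.

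Chrnb1, the beta subunit, read 0.0842 and 0.0156 FPKM without treatment and 2.19 and 2.97 FPKM with it. The groups did not overlap, and the log2 fold change was 4.18 (SE 0.35, limma adjusted p = 4.35e-05). The call was lost without 5-AZA replicate 101 (4.39, limma adjusted p = 0.0525), without 5-AZA replicate 102 (3.97, adjusted p = 0.0594) and when each gene was represented by its highest transcript alone (2.14, adjusted p = 0.346). Chrnd, the delta subunit, was at 0.00940 and 0.00897 FPKM in untreated cells and at 2.48 and 4.06 FPKM after 5-AZA. Both untreated values were near the bottom of the scale, and the log2 fold change was 4.91 (SE 0.33, limma adjusted p = 1.42e-05). Chrnd lies next to Chrng on chromosome 1, with no coding gene between them in the annotation.

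The fetal subunit was the more abundant member of the pair that is exchanged during development. Chrng (gamma) was at 0.0181 FPKM in untreated replicate 1, was listed at 0 in replicate 2, and stood at 4.86 and 8.47 FPKM after 5-AZA. This was the highest log2 fold change of the 10 genes, 5.91 (SE 0.33, limma adjusted p = 5.32e-06), and the 71st of all genes tested, although Chrna1 stood above it with 1 FPKM added before the log (3.30 against 2.88) and without untreated replicate 2 (6.18 against 5.79). Chrne (epsilon) was listed at 0 in both untreated samples and was at 1.08 and 1.59 FPKM after 5-AZA, so no fold change is given, and its limma adjusted p was 8.23e-05. Chrng was therefore 4.48 and 5.33 times Chrne in the 2 treated samples, per unit of transcript length. Chrng made up 81.8% and 84.2% of the sum of Chrng and Chrne (83.0% ± 1.72, SD, n = 2), and 87.5% with curated transcripts only. Untreated replicate 2 had both genes listed at 0, and untreated replicate 1 had only 0.0181 FPKM of Chrng, so the share was not compared with untreated cells as it stands. With 0.1 FPKM added to each gene, the shares were 54.1% and 50% untreated and 80.7% and 83.5% after 5-AZA, with an exact two-sided permutation p of 0.333, the smallest that 2 samples against 2 allow. The untreated shares were set almost wholly by the 0.1 FPKM added, so this test cannot decide whether the share changed.

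The proportions among the subunits, as ratios of FPKM, were read in the treated samples. Chrna1 was 3.70 and 3.90 times Chrnb1, 3.27 and 2.85 times Chrnd, 1.67 and 1.37 times Chrng and 7.49 and 7.30 times Chrne in replicates 101 and 102. The order was thus Chrna1, Chrng, Chrnd, Chrnb1 and Chrne in both. The myosin heavy chains, which also have fetal and adult forms, were read in the same way. The embryonic and neonatal genes Myh3 and Myh8 together were at 28.0 and 41.5 FPKM and the adult fast genes Myh1, Myh2 and Myh4 together at 13.4 and 20.7 FPKM, so the fetal forms made up 67.6% and 66.7% of these 5 genes. The slow gene Myh7 was at 3.12 and 5.44 FPKM.

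**Figure D1:**
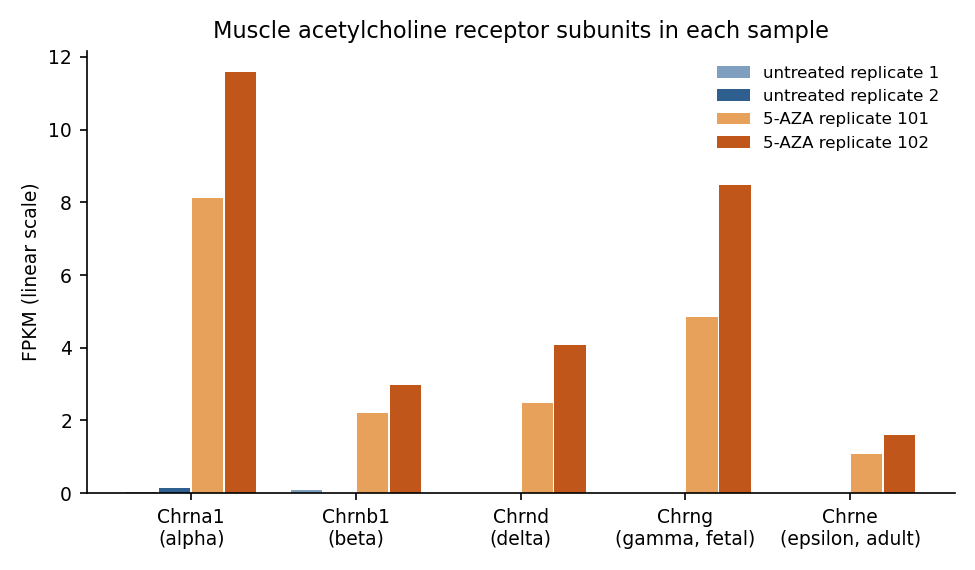
The 5 subunit genes of the muscle acetylcholine receptor, with FPKM on a linear axis from 0 and 1 bar for each sample. The untreated bars lie at or below 0.143 FPKM, and in both treated samples Chrna1 stands highest, Chrng next and Chrne lowest.

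Among the clustering genes, the kinase, its adaptor and the scaffold were called higher, and the ligand and its receptor were not. Agrn, which encodes agrin, was at 8.27 and 8.46 FPKM in untreated cells and at 7.74 and 9.48 FPKM after 5-AZA. The untreated values fell between the treated ones, and the log2 fold change was 0.03 (SE 0.15, limma adjusted p = 0.902), turning to -0.07 with centring and -0.06 with quantile normalization. Lrp4, the agrin receptor, was at 3.06 and 2.39 FPKM and then at 4.96 and 5.00 FPKM. Both treated values exceeded both untreated ones, with a log2 fold change of 0.86 (SE 0.19, limma adjusted p = 0.0102), which is below a 2-fold change. It was called without untreated replicate 1 (1.03, limma adjusted p = 0.00345) and with the highest transcript alone (1.03, 0.0312). The limma adjusted p rose above 0.05 with no limit on low values (0.0811) and without untreated replicate 2 (0.0609), 5-AZA replicate 101 (0.166) or 102 (0.172).

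Musk, the receptor kinase, was at 0.144 and 0.155 FPKM without treatment and at 4.77 and 7.11 FPKM with it. The untreated values were nearly equal, and the log2 fold change was 4.57 (SE 0.27, limma adjusted p = 7.24e-06). Rapsn, the receptor scaffold, was at 0.596 and 0.547 FPKM and then at 3.36 and 4.04 FPKM. It was the best expressed of the called genes in untreated cells, and its log2 fold change of 2.50 (SE 0.23, limma adjusted p = 8.09e-05) was the smallest among them, although Dok7 was lower with quantile normalization (1.64 against 1.93). With 1 FPKM added before the log, both Dok7 (0.82) and Chrne were below Rapsn (1.58), so this rank depends on the amount added. Dok7, the MuSK adaptor, was at 0.0140 and 0.0130 FPKM and then at 0.505 and 1.14 FPKM. It had the lowest level of the 10 after treatment and the largest ratio between treated replicates (2.25), with a log2 fold change of 2.93 (SE 0.43, limma adjusted p = 0.00122). With no limit on low values, which adds genes to the adjustment, Dok7 was not called (limma adjusted p = 0.0589), and with 1 FPKM added before the log its log2 fold change was 0.82.

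**Figure D2:**
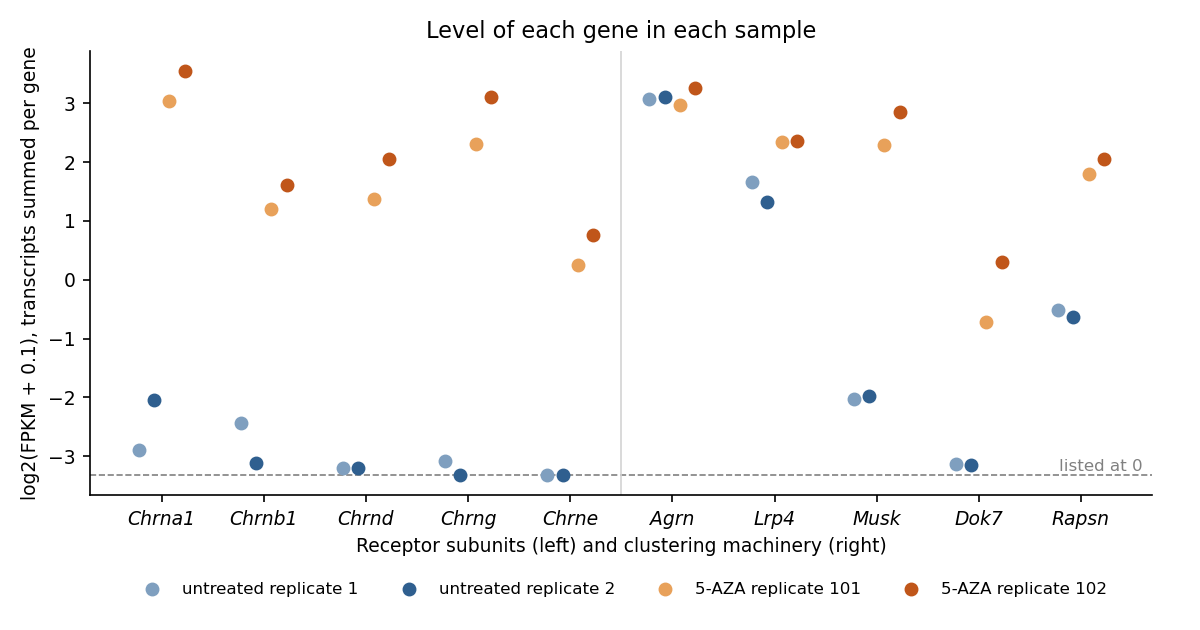
Each gene's log2(FPKM + 0.1) in the 4 samples, with the receptor subunits left of the vertical line and the clustering genes right of it, and a dashed line where a gene listed at 0 falls. The treated points stand clear of the untreated ones for 9 genes, and those of Agrn overlap.

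In all, 8 of the 10 genes were called higher and 0 lower, beside 13.1% and 1.32% of all genes tested, and the 8 calls were also made with centring and with quantile normalization. At an unadjusted limma p below 0.05, 9 were higher and 0 lower, beside 3220 and 1464 of all 13199 genes tested. The 9 included 6 (Chrna1, Chrnb1, Chrnd, Chrng, Chrne and Dok7) that passed the limit on low values only through their treated samples, and a gene that passes in that way had to differ. With no limit on low values, 7 of the 10 were called higher, beside 6.73% of 17510 genes. For 9 of the 10 genes both treated values exceeded both untreated ones, as they did for 36.8% of all genes tested.

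**Figure D3:**
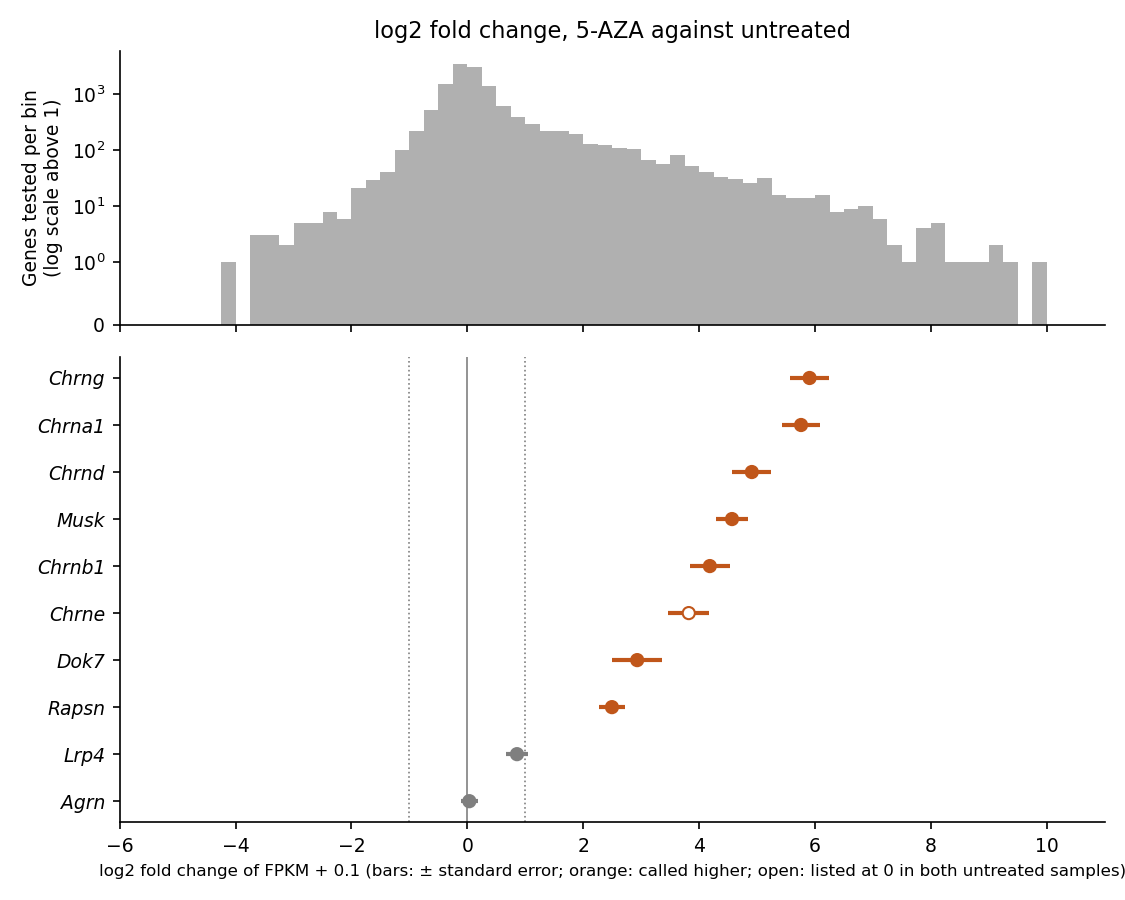
The log2 fold change of FPKM + 0.1, 5-AZA against untreated, for the 10 genes below (bars are standard errors, orange marks called genes) and for all 13199 genes tested above, as genes per bin of the same axis on a log scale. Chrng, at 5.91, and Chrna1, at 5.76, lie farthest right, Agrn lies at 0.03, and the open point of Chrne is set by the 0.1 FPKM added.

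Ordered by mean FPKM after 5-AZA, the genes ran Chrna1, Agrn, Chrng, Musk, Lrp4, Rapsn, Chrnd, Chrnb1, Chrne and Dok7. Neighbours in this order had separate ranges only between Lrp4 and Rapsn and between Chrnb1 and Chrne, and the remaining neighbours overlapped. In both untreated samples the order began with Agrn, then Lrp4, Rapsn and Musk. Each of the 10 genes was higher in 5-AZA replicate 102 than in 101, by a ratio of 1.01 (Lrp4) to 2.25 (Dok7), with a median of 1.45. Over the 10831 genes with at least 1 FPKM in both treated samples, 76.8% were higher in 102 and the median ratio was 1.10. The 15 skeletal muscle markers were also all higher in 102, with a median ratio of 1.46. The part that the muscle share of each culture has in the levels of the receptor and clustering genes was not tested.

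Single transcripts gave fewer calls than summed genes. Of the 40 transcripts, 27 reached 0.1 FPKM in some sample, 25 were tested and 5 were called higher, beside 2.1% of all 35557 transcripts tested, and 0 were called lower. At an unadjusted limma p below 0.05, 13 transcripts were higher and 0 lower. The 5 called were the only Chrna1 transcript (NM_007389.5, limma adjusted p = 0.00647), the only Chrnd transcript (NM_021600.3, 0.0176), NM_009604.3 of Chrng (0.00780), XM_006537661.2 of Musk (0.0302) and NM_009023.3 of Rapsn (0.0385). All of these but NM_009023.3 passed the limit on low values only through their treated samples, so they had to differ. The curated Chrng transcript was at 4.85 and 7.35 FPKM after 5-AZA, and the predicted XM_006529078.3 was at 0.00683 FPKM in replicate 101 and at 1.12 FPKM in replicate 102.

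The split of a gene's level among its transcripts often differed between the treated replicates. For Chrnb1, XM_006532004.3 was at 0.0299 FPKM in replicate 101 and 2.10 FPKM in replicate 102, whereas XM_006532005.3 was at 0.946 and 0.00689 FPKM and the curated NM_009601.4 at 1.15 and 0.844 FPKM. The sum of the gene was steadier than its parts, and no Chrnb1 transcript was called. For Musk, XM_006537661.2 was highest in both (2.14 and 2.92 FPKM), followed in replicate 102 by NM_001165996.1, at 0.960 and 1.83 FPKM. NM_001037129.1 was at 0.168 and 1.04 FPKM, a wide gap, while XM_006537659.2 was at 1.01 and 1.04 FPKM.

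**Figure D4:**
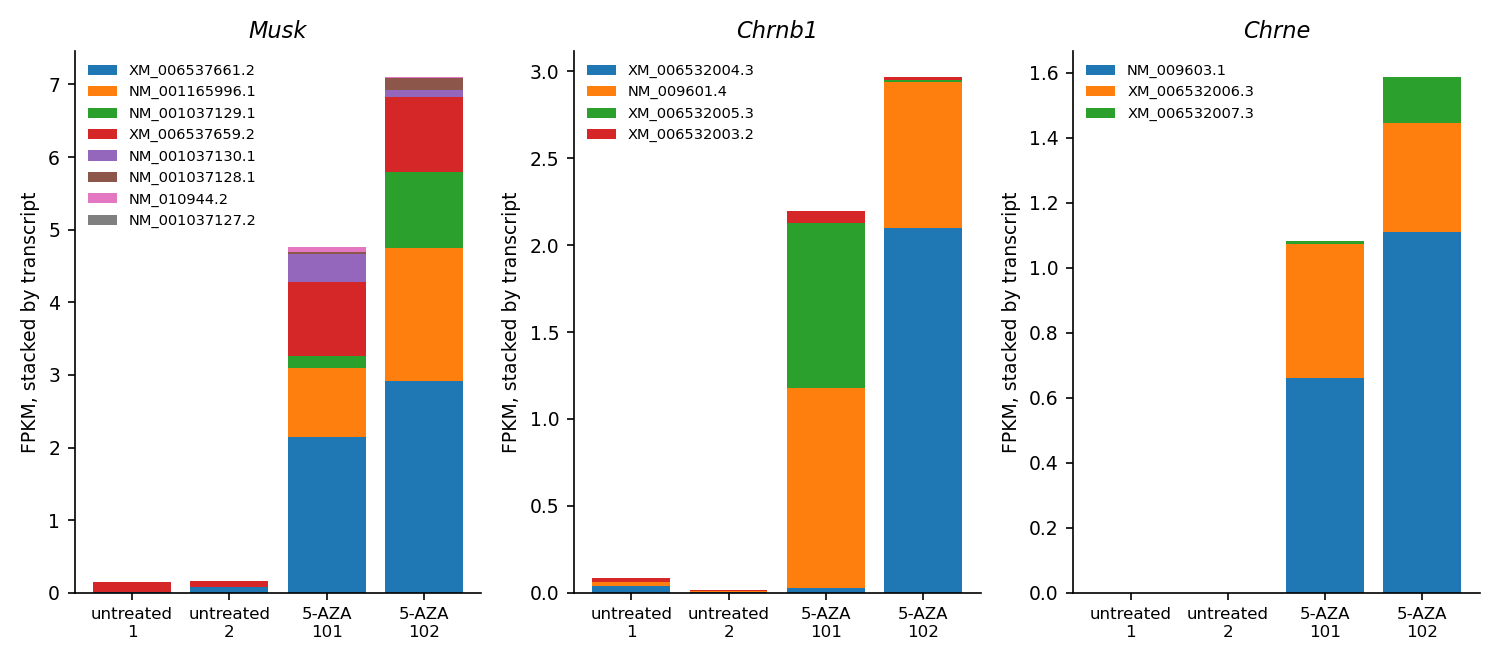
FPKM of Musk, Chrnb1 and Chrne in each sample, stacked by annotated transcript, on a linear axis of its own for each gene. The Chrnb1 total rests on XM_006532005.3 and NM_009601.4 in replicate 101 and mostly on XM_006532004.3 in replicate 102, whereas NM_009603.1 is the largest layer of Chrne in both.

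For Chrne, the curated NM_009603.1 was at 0.660 and 1.11 FPKM, XM_006532006.3 at 0.414 and 0.335 FPKM and XM_006532007.3 at 0.00919 and 0.144 FPKM, and all 3 were listed at 0 in untreated cells. The gene overlaps 4930544D05Rik in the annotation, which was listed at 0 in all 4 samples. Chrna1 and Agrn each overlap a lncRNA gene and Rapsn another annotated gene, and how reads were shared between overlapping genes is not given in the sources used here. Nearly all of Dok7 came from the predicted XM_017320832.1, with 97.7% and 96.8% of the gene's level in the treated samples. With curated transcripts only, Dok7 was under the limit and was not tested. The curated NM_021604.3 carried 74.7% to 90.1% of Agrn in the 4 samples. The curated NM_172668.3 of Lrp4 was at 2.26 and 1.99 FPKM untreated and at 4.30 and 4.57 FPKM after 5-AZA, with a log2 fold change of 1.03 that was not called among transcripts (limma adjusted p = 0.118).

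The other genes of the synapse were read from lists by role. Of 17 partners of MuSK signalling, such as Rac1, Cdc42 and Ctnnb1, which act on the actin cytoskeleton or bind cadherins, 17 were tested. Of these 17 partners, 0 were called higher and 0 lower, beside 13.1% and 1.32% of all genes. Their log2 fold changes ran from -0.30 to 0.65, with a median of 0.02 beside 0.05 for all genes. The most abundant were Cdc42, at 249 to 265 FPKM, and Ctnnb1, at 225 to 254 FPKM, whose treated and untreated values overlapped. At an unadjusted limma p below 0.05, 3 were higher and 0 lower, beside 3220 and 1464 of all 13199 genes tested. Of the 3, Fyn, a Src-family kinase, had a log2 fold change of 0.65 with a limma adjusted p of 0.00620.

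In the synaptic cleft and basal lamina, 4 of 10 genes tested were called higher and 0 lower, beside 13.1% and 1.32% of all genes, and the median log2 fold change was 0.50. At an unadjusted limma p below 0.05, 5 were higher and 3 lower, beside 3220 and 1464 of all 13199 genes tested. Ache, the enzyme that breaks down acetylcholine, was listed at 0 in both untreated samples and was at 0.835 and 1.41 FPKM after 5-AZA (limma adjusted p = 1.83e-04), so that it passed the limit only through its treated samples. Colq, the collagen tail that anchors this enzyme, was at 0.136 and 0.230 FPKM untreated and at 0.443 and 0.711 FPKM after 5-AZA, with a log2 fold change of 1.25 (limma adjusted p = 0.0380). Both components of the anchored enzyme were thus higher. Lama2, the laminin alpha2 chain of muscle basement membrane, was at 0.272 and 0.291 FPKM and then at 1.89 and 1.93 FPKM, a log2 fold change of 2.40 (limma adjusted p = 2.21e-04), and Lama5 was the 4th, with a log2 fold change of 1.01 (limma adjusted p = 0.0218). The most abundant of the list were Nid2, Dag1 (dystroglycan) and Lama4, none of them called. Dag1 had a log2 fold change of -0.48 (limma adjusted p = 0.00877), Hspg2 (perlecan) of -0.60 (0.0340) and Lamb2 (laminin beta2) of -0.40 (0.0480), all under 2-fold. In the other direction, Nid1 was at 29.8 and 28.9 FPKM untreated and at 53.7 and 61.5 FPKM after 5-AZA. Its log2 fold change of 0.97 (limma adjusted p = 2.34e-04) was also under 2-fold.

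Of 8 postsynaptic scaffold and channel genes tested, 3 were called higher and 0 lower, beside 13.1% and 1.32% of all genes, and the median log2 fold change was 0.48. At an unadjusted limma p below 0.05, 4 were higher and 1 lower, beside 3220 and 1464 of all 13199 genes tested. The lower one was Syne1, a nuclear envelope protein, with a log2 fold change of -0.67 (limma adjusted p = 0.0200). Ncam1, a cell adhesion molecule of muscle and nerve, had a log2 fold change of 2.47 (limma adjusted p = 4.98e-05), and the syntrophin gene Sntb1 had 2.75 (limma adjusted p = 5.20e-05). Nes, the intermediate filament nestin, had 2.04 (limma adjusted p = 8.12e-05). Utrn, which encodes the synaptic dystrophin relative utrophin, was at 17.8 to 20.0 FPKM untreated and 16.4 to 18.1 FPKM after 5-AZA and was not called, nor was the syntrophin gene Sntb2. The sodium channel gene Scn4a stayed under the limit.

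Of 7 neuregulin and ETS pathway genes tested, 0 were called higher and 1 lower, beside 13.1% and 1.32% of all genes. At an unadjusted limma p below 0.05, 1 was higher and 2 lower, beside 3220 and 1464 of all 13199 genes tested. The gene called was Erbb3, a neuregulin receptor, at 2.56 and 2.13 FPKM untreated and at 0.518 and 1.13 FPKM after 5-AZA, with a log2 fold change of -1.48 (limma adjusted p = 0.0123). Gabpa and Gabpb1, the subunits of the ETS factor that binds the N-box, and Erbb2 were not called, and Erbb4 was under the limit. Among the genes known to link muscle activity to receptor transcription, 2 of 5 tested were called higher, beside 13.1% of all genes, and both passed the limit on low values only through their treated samples. Myog, which encodes myogenin, was at 0.0806 and 0.101 FPKM and then at 33.0 and 52.4 FPKM, a log2 fold change of 7.77 (limma adjusted p = 3.13e-07). Myod1 was listed at 0 in both untreated samples and was at 0.512 and 1.23 FPKM after 5-AZA (limma adjusted p = 9.44e-04). Myf5, Myf6 and Dach2 were listed at 0 in all 4 samples. Hdac4 (log2 fold change 0.92, limma adjusted p = 0.0110) and Hdac5 (-0.35, limma adjusted p = 0.0790) were under 2-fold and not called. At an unadjusted limma p below 0.05, 4 genes of this list were higher and 1 lower, beside 3220 and 1464 of all 13199 genes tested. Another of the 4, like Myog and Myod1, passed the limit on low values only through its treated samples.

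**Figure D5:**
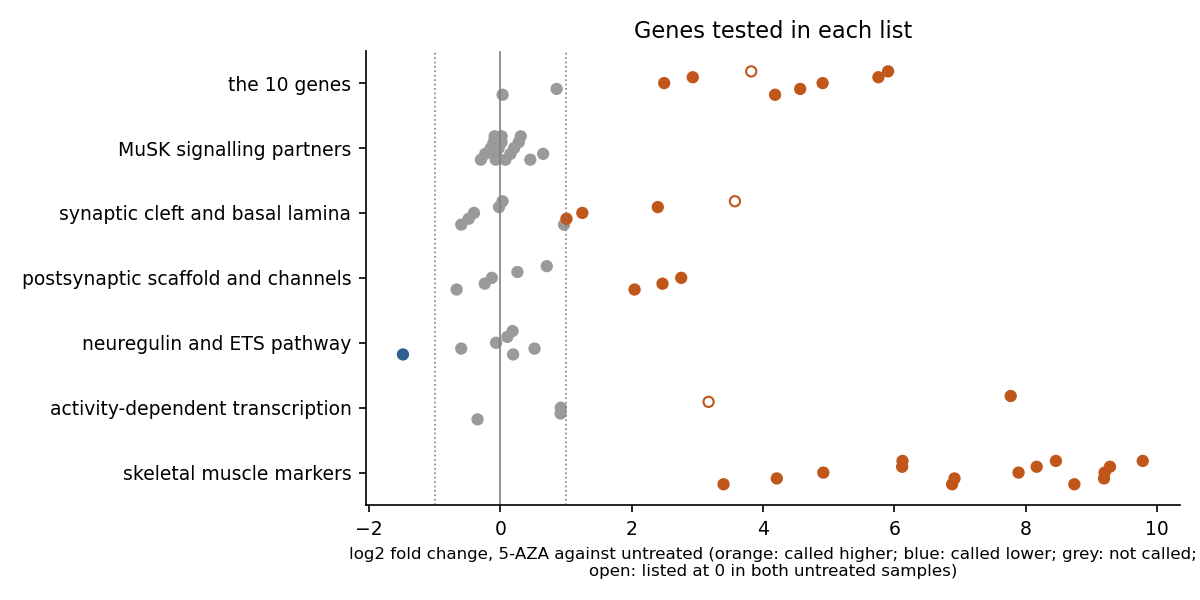
The log2 fold change (5-AZA against untreated, on FPKM + 0.1) of every gene tested in each list, with 1 point per gene and dotted lines at a 2-fold change. The 17 MuSK signalling partners all lie between the dotted lines, whereas 8 of the 10 receptor and clustering genes and all 15 skeletal muscle markers lie to the right of them. Of all genes tested, 13.1% were called higher and 1.32% lower. Of the 10 genes, 6 passed the limit on low values only through their treated samples, as did several of the markers, and such genes had to differ.

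The nicotinic subunit genes of other tissues lay below every muscle subunit gene in the treated samples. Of 11 non-muscle nicotinic subunit genes, 4 were listed at 0 in all samples, 10 were under 0.1 FPKM in every sample, and the 1 tested was Chrnb2. Chrnb2 was at 0.162 and 0.129 FPKM untreated and at 0.174 and 0.211 FPKM after 5-AZA, with a log2 fold change of 0.25 (SE 0.37, limma adjusted p = 0.676). All 5 muscarinic receptor genes were under 0.1 FPKM in every sample.

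Markers of the nerve and its sheath were read because both cell types belong to the synapse in tissue. Of 8 motor neuron markers, Chat, which makes acetylcholine, and Slc18a3, which loads it into vesicles, were listed at 0 in all 4 samples with Isl1, Mnx1 and Snap25. The most abundant were Slc5a7, the choline transporter, at 0.113 and 0.0864 FPKM untreated and 0.322 and 0.245 FPKM after 5-AZA, and Syp, a synaptic vesicle protein, at 0.209 and 0.0489 FPKM and then 0.122 and 0.0654 FPKM. The treated values of Slc5a7 lay above the untreated ones (log2 fold change 0.94, limma adjusted p = 0.102), and those of Syp overlapped them. The summed level of the 8 was 0.321 and 0.135 FPKM untreated and 0.449 and 0.310 FPKM after 5-AZA, and of the 2 tested 0 were called by limma. Slc5a7 was higher at an unadjusted limma p below 0.05, as were 3220 of all 13199 genes tested. It passed the limit on low values only through its treated samples. Of 6 Schwann cell markers tested, 3 (Sox10, Gfap and Mbp) were called higher and 1 (Pmp2) lower, beside 13.1% and 1.32% of all genes. At an unadjusted limma p below 0.05, 3 were higher and 2 lower, beside 3220 and 1464 of all 13199 genes tested. Sox10 was at or near 0 untreated and at 0.204 and 0.570 FPKM after 5-AZA, so that it passed the limit only through its treated samples. The sum of these markers was 27.6 and 37.2 FPKM untreated and 23.9 and 38.4 FPKM after 5-AZA, with S100b the largest part. Both treated values of S100b lay below both untreated ones, with a log2 fold change of -0.60 (limma adjusted p = 0.0828), and it was not called. The part of either cell type in the levels of the 10 genes was not tested beyond these values.

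The genes closest to each member in level and pattern were found by the root mean square difference of log2(FPKM + 0.1) over the 4 samples, which is a description of 4 points that share their libraries. Chrna1 was closest to Smyd1, a methyltransferase of striated muscle, with a difference of 0.19. Chrnd was closest to Lmod2, an actin filament protein of muscle (0.05), and Musk to Pygm, the muscle glycogen phosphorylase (0.27). Dok7 was closest to Ampd1, the muscle AMP deaminase (0.13), and then to Myod1 (0.14). For Chrng the closest gene was Tex101, known from germ cells (0.09), for Chrne the homeobox gene Rhox1 (0.04) and for Chrnb1 the junction gene F11r (0.11). Rapsn was closest to Apol6 (0.17), Lrp4 to Ppm1k (0.08) and Agrn to Rars2 (0.03).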

How the data were processed

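Total RNA from 2 untreated and 2 5-AZA-treated samples was depleted of ribosomal RNA and sequenced from stranded libraries. The authors deposited an FPKM value for each mRNA and lncRNA transcript and an RPM value for each circRNA. The submitters' processing notes name Trimmomatic, HISAT2, Bowtie2 2.2.9, eXpress 1.5.1 and the build mm9, with no role or order, whereas 992 of 10045 GENCODE lncRNAs had exactly the span of a RefSeq gene on GRCm38.p6. Read counts were not used here, so the depth behind each value is unknown, and 0 columns of sample values were left out. The 10 genes and all lists were chosen with earlier results of these data known, and the mesenchymal markers after their values were seen.

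Transcripts were summed per gene. Log2(FPKM + 0.1) was fitted with limma 3.58.1 (lmFit, eBayes with trend) in R 4.3.3, with the package data.table at version 1.17.8, on genes with a mean of at least 0.1 FPKM, and p-values were adjusted over all genes tested by Benjamini and Hochberg's approach. The fit was tested on simulated data. Changes were simulated only in genes with a mean log2(FPKM + 0.1) above 0, so that test does not cover genes near 0 FPKM in untreated samples. By a fixed rule all 10 genes were named, and names were otherwise drawn from their transcripts reaching 0.1 FPKM, the called genes and the 3 most abundant genes of each list, and the 3 genes most like each member. Fyn, Hspg2, Lamb2, Nid1, Syne1, Scn4a, Erbb4 and the genes listed at 0 were named after their values were seen. All 15 skeletal muscle markers were called and are given as a sum. From these lists 2 genes were left out after the first fit and are not reported here. Mymk was matched to its older symbol Tmem8c. The test planned for the Chrng share could not be run on FPKM as deposited, because untreated replicate 2 had both genes listed at 0.

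Alternatives were pseudocounts of 0.01 and 1 FPKM, no limit or a mean of at least 1 FPKM, centring on sample medians, quantile normalization, eBayes without trend, curated transcripts only (RefSeq identifiers starting with NM), the highest transcript of each gene, and leaving out each sample in turn.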

Additional observations from a re-analysis of the deposited data

How the results depend on the processing

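The count of receptor and clustering genes called higher, 8, ranged from 6 to 9 over all alternatives, and 0 were called lower in any of them. It was 9 without untreated replicate 1, 7 with a pseudocount of 1 FPKM, with no limit on low values, with curated transcripts only and without 5-AZA replicate 101, and 6 without 5-AZA replicate 102 and with a mean of at least 1 FPKM, where Chrne and Dok7 were not tested. Chrnd, Chrng, Musk and Rapsn were called in all 13 alternatives, Chrne in each one that tested it, and Agrn in none.

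Over all genes, 1724 called higher became 875 with a pseudocount of 1 FPKM, 845 with a mean of at least 1 FPKM and 1041 with quantile normalization, and 733 to 1617 when 1 sample was left out, with the fewest without 5-AZA replicate 102 and 925 without 101. The 174 called lower became 86 with a pseudocount of 1 FPKM, 83 with no limit and 886 with quantile normalization, and 52 to 184 when 1 sample was left out. The 5 transcripts of the members called higher became 3 with a pseudocount of 0.01 FPKM, 0 with no limit on low values and 0 to 1 when 1 sample was left out. The Chrng share of Chrng plus Chrne, 83.0%, was 87.5% with curated transcripts only and 81.8% to 84.2% when 1 treated sample was left out. The causes were not tested. Where a sample was left out, the lone sample of its group was assumed to vary like the other group. No paired analysis was possible because the groups share no replicate numbers. Without read counts, the depth behind levels near 0 FPKM is unknown.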

Other observations

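Non-coding RNAs near the 10 genes stayed at low levels. Within 5000 bp of 7 of the genes, 26 lncRNAs were listed, the highest value in any sample was 1.95 FPKM, 2 were tested and limma called 0, with 0 past an unadjusted p of 0.05. NONMMUT037924.2, near Chrna1, was at 0.988 FPKM in untreated replicate 1, listed at 0 in replicate 2 at 1.95 FPKM in 5-AZA replicate 101 and near 0 in 102, with a log2 fold change of 0.46 (limma adjusted p = 0.934). NONMMUT146874.1, near Rapsn, had a log2 fold change of -0.28 (limma adjusted p = 0.794). Of 4295 circRNAs listed, 0 had 1 of the 10 genes as host gene.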
